A study of Mus musculus with 17 samples.

Results

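The genes of MHC class II antigen presentation were followed in sorted mouse intestinal stem cells. 6 genes were chosen by name: H2-Aa, H2-Ab1, H2-Eb1, H2-DMa, Cd74 and Ciita. All 6 were among the 27799 gene names tested, through 7 of 55681 non-control probes, since H2-Ab1 has 2 probes. RNA was measured on 17 single-colour Agilent arrays of cells from LGR5-GFPki mice, in which green fluorescent protein is knocked in to report Lgr5, a marker of crypt base stem cells. Cells were sorted as LGR5hi or LGR5lo 3 hours after the mice received 12 Gy of gamma-irradiation or were left non-irradiated. There were 4 arrays of irradiated LGR5hi cells, 4 of irradiated LGR5lo cells, 4 of non-irradiated LGR5hi cells and 5 of non-irradiated LGR5lo cells. Each group held 2 female samples and otherwise male ones. Every group carried the same knock-in, and the age and the strain of the mice are not given in the sources used here. The labels call all cells intestinal stem cells and do not say whether samples of 1 group came from separate mice. The p-values below therefore measure the spread between these samples, which may be partly technical.

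MHC class II molecules present peptides from the endosomal pathway to CD4 T cells. Each is an alpha and a beta chain that assemble with the invariant chain, encoded by Cd74, and the chaperone H2-DM later exchanges the invariant chain fragment for peptide. CIITA, a transactivator induced by interferon-gamma, joins RFX, CREB and NF-Y proteins on the X and Y boxes of class II promoters. Professional antigen-presenting cells carry class II constitutively, and intestinal epithelium can carry it too.

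The promoters of H2-Aa and H2-Eb1 are shown because both hold the boxes through which CIITA is known to act. No window was matched to H2-Ab1, Cd74 or Ciita. The transcripts of H2-Aa and H2-Eb1 varied together on these arrays, but so did other pairs of members, those of H2-DMa included. Each line gives the 130 bases before the annotated start, from RefSeq, build GRCm38.p6, with capitals marking CTGATTGG, which holds the inverted CCAAT of the Y box, and TNGCAACT, which belongs to the X box.
H2-Aa, chr17:34287824-34287953, minus strand: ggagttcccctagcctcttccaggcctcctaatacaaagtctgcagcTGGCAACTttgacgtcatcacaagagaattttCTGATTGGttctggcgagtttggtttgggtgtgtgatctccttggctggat
H2-Eb1, chr17:34305737-34305866, plus strand: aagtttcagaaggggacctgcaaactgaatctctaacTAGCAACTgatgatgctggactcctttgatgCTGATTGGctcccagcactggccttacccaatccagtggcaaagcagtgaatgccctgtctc

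The Y box letters lay 51 to 44 bases before the start in H2-Aa and 62 to 55 in H2-Eb1. The X box letters lay 83 to 76 bases before the start in H2-Aa and 93 to 86 in H2-Eb1, so the motifs did not overlap. These letters were chosen after the sequences had been read. Over 32851 windows of 250 bases before a start, on both strands, 3.83% held CTGATTGG and 2.56% held TNGCAACT. Both stood together in 31 windows, or 0.0944%. The windows matched to H2-DMa, of which there were 2, held neither.

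Values are log2 processed signal minus the array's 75th percentile, so a level is relative to that array, and levels of different probes are not compared. The probe of H2-Aa lies on mm9 chromosome 17 at 34421285 to 34421344 and that of H2-Eb1 at 34453075 to 34453134. The H2-DMa probe spans 34274300 to 34274863 of the same chromosome in 564 bases, longer than an array oligo. The probes of H2-Ab1 overlap each other, at 34406296 to 34406355 and at 34406305 to 34406363, and the brighter of the 2 was tested. The Ciita probe lies on chromosome 16 at 10526568 to 10526627, and the Cd74 probe on chromosome 18. All 7 probes were well above background on each of the 16 arrays with spot flags and saturated on none. The file of non-irradiated LGR5hi replicate 1 was damaged, and its values were rebuilt from the deposited series table. On LGR5lo replicate 2 of the non-irradiated arm 95.6% of non-control spots were well above background, where the other 15 arrays with flags had 58.9% to 73.9%. It is called the bright LGR5lo array below.

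Lgr5 and Cdkn1a served to check the labels. Lgr5 was higher in LGR5hi cells by 2.89 ± 0.28 after irradiation and by 3.12 ± 0.27 without it (log2 difference and standard error). The damage-response gene Cdkn1a, a p53 target that arrests the cell cycle, rose with irradiation by 4.92 ± 0.31 in LGR5hi cells and by 2.88 ± 0.29 in LGR5lo cells. Among other epithelial genes, the stem cell genes Olfm4 and Ascl2 were higher and Krt20, a keratin of differentiated cells, was lower in LGR5hi cells in both arms. The Krt20 call was lost after irradiation without any 1 of 10 arrays, the 4 irradiated LGR5lo arrays, irradiated LGR5hi replicates 1 to 3 and non-irradiated LGR5lo replicates 1, 3 and 5 (adjusted p up to 0.154). In the non-irradiated arm 4 arrays each decided it, replicates 1 and 4 of LGR5hi and replicates 4 and 5 of LGR5lo without irradiation (up to 0.105 when left out).

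Class II transcripts were higher in LGR5hi cells than in LGR5lo cells, and no member passed the test for irradiation. Averaged over both arms, all 6 members were higher in LGR5hi cells, by 1.73-fold for H2-DMa to 3.17-fold for H2-Eb1 (limma with Benjamini-Hochberg adjustment over all genes, threshold 0.05). Of all gene names, 16.7% were called in this comparison and 8.49% were called higher. H2-DMa rested on single arrays here: its adjusted p of 0.0324 became 0.0556 to 0.0711 without any 1 of 9 arrays, namely irradiated LGR5hi replicate 3 or 4, irradiated LGR5lo replicate 1, 2 or 3, non-irradiated LGR5hi replicate 1, 2 or 4, or non-irradiated LGR5lo replicate 5. The average over arms was added after the data had been seen.

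H2-Eb1 encodes the beta chain of the I-E molecule. It measured 6.46, 6.27, 6.63 and 7.16 on the irradiated LGR5hi arrays, replicates 1 to 4, against 4.57, 4.21, 4.9999 and 6.31 on the irradiated LGR5lo arrays. Without irradiation it measured 6.42, 6.34, 5.68 and 6.63 in LGR5hi cells, against 5.05, 4.18, 4.50, 4.45 and 4.56 in LGR5lo cells. The sorts did not overlap without irradiation, and after it 1 array, irradiated LGR5lo replicate 4, reached into the LGR5hi range. The difference was 1.61 ± 0.37 after irradiation (limma, adjusted p = 0.0135) and 1.72 ± 0.35 without it (adjusted p = 0.00488), and H2-Eb1 was the one member called in both arms.

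H2-Ab1 encodes the beta chain of the I-A molecule. It measured 6.74, 6.30, 6.80 and 7.54 in irradiated LGR5hi cells, against 5.51, 4.98, 5.75 and 7.10 in irradiated LGR5lo cells. It measured 7.02, 7.14, 6.30 and 7.23 in non-irradiated LGR5hi cells, against 6.03, 5.54, 5.52, 5.35 and 5.84 in non-irradiated LGR5lo cells. Again only the irradiated arm overlapped. The difference was 1.01 ± 0.38 after irradiation (limma, adjusted p = 0.144) and 1.27 ± 0.36 without it (adjusted p = 0.0351). Its other probe gave means of 6.67 ± 0.65 in irradiated LGR5hi cells (SD, n = 4) and 5.67 ± 0.95 in irradiated LGR5lo cells (n = 4). That probe gave 6.70 ± 0.41 in non-irradiated LGR5hi cells (n = 4) and 5.49 ± 0.24 in non-irradiated LGR5lo cells (n = 5). In a limma fit adjusted over all kept probes, it differed by 1.20 ± 0.38 without irradiation and missed the threshold (adjusted p = 0.0701). The tested probe passed there (adjusted p = 0.0423), so the call without irradiation depended on the probe.

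H2-Aa encodes the alpha chain that pairs with the H2-Ab1 product. It measured 2.08, 1.47, 2.57 and 3.81 in irradiated LGR5hi cells, against 0.42, -0.06, 1.05 and 2.73 in irradiated LGR5lo cells. It measured 2.24, 2.41, 1.87 and 3.11 in non-irradiated LGR5hi cells, against 0.80, 0.01, 0.58, 1.25 and 1.08 in non-irradiated LGR5lo cells. The sorts overlapped after irradiation and were apart without it. The difference was 1.45 ± 0.56 after irradiation (limma, adjusted p = 0.157) and 1.66 ± 0.53 without it (adjusted p = 0.0595), neither of which passed.

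Cd74, the invariant chain, measured 6.29, 5.71, 6.26 and 7.17 in irradiated LGR5hi cells, against 4.85, 3.78, 5.07 and 6.31 in irradiated LGR5lo cells. It measured 5.97, 6.10, 5.24 and 6.30 in non-irradiated LGR5hi cells, against 4.79, 4.14, 4.26, 4.66 and 4.33 in non-irradiated LGR5lo cells. Every non-irradiated LGR5hi array was above every non-irradiated LGR5lo array, while the irradiated sorts overlapped through irradiated LGR5lo replicate 4. The difference was 1.35 ± 0.43 after irradiation (limma, adjusted p = 0.0767) and 1.47 ± 0.40 without it (adjusted p = 0.0315).

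H2-DMa encodes one chain of the H2-DM chaperone. It measured 1.17, 0.84, 1.81 and 2.26 in irradiated LGR5hi cells, against 0.58, 0.09, 0.84 and 1.93 in irradiated LGR5lo cells. It measured 2.32, 2.35, 1.89 and 2.59 in non-irradiated LGR5hi cells, against 1.64, 1.44, 1.29, 1.26 and 1.21 in non-irradiated LGR5lo cells. The sorts were apart without irradiation and overlapped after it. The difference was 0.66 ± 0.35 after irradiation (limma, adjusted p = 0.337) and 0.92 ± 0.33 without it (adjusted p = 0.0929), the smallest difference of the 6 members in both arms.

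Ciita, the transactivator, measured -0.56, -1.14, 0.01 and -0.31 in irradiated LGR5hi cells, against -2.37, -2.85, -1.94 and -1.56 in irradiated LGR5lo cells. It measured -0.11, 0.17, -1.29 and 0.71 in non-irradiated LGR5hi cells, against -1.54, 0.63, -1.91, -1.26 and -1.35 in non-irradiated LGR5lo cells. Here the irradiated sorts were apart and the non-irradiated ones overlapped, the reverse of the chains. The difference was 1.68 ± 0.51 after irradiation (limma, adjusted p = 0.0639) and 0.96 ± 0.48 without it (adjusted p = 0.232). The value of 0.63 belongs to the bright LGR5lo array. Without that array the non-irradiated difference of Ciita was 1.38 ± 0.38 (adjusted p = 0.0318) and the irradiated one kept its size with an adjusted p of 0.0102.

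**Figure D1:**
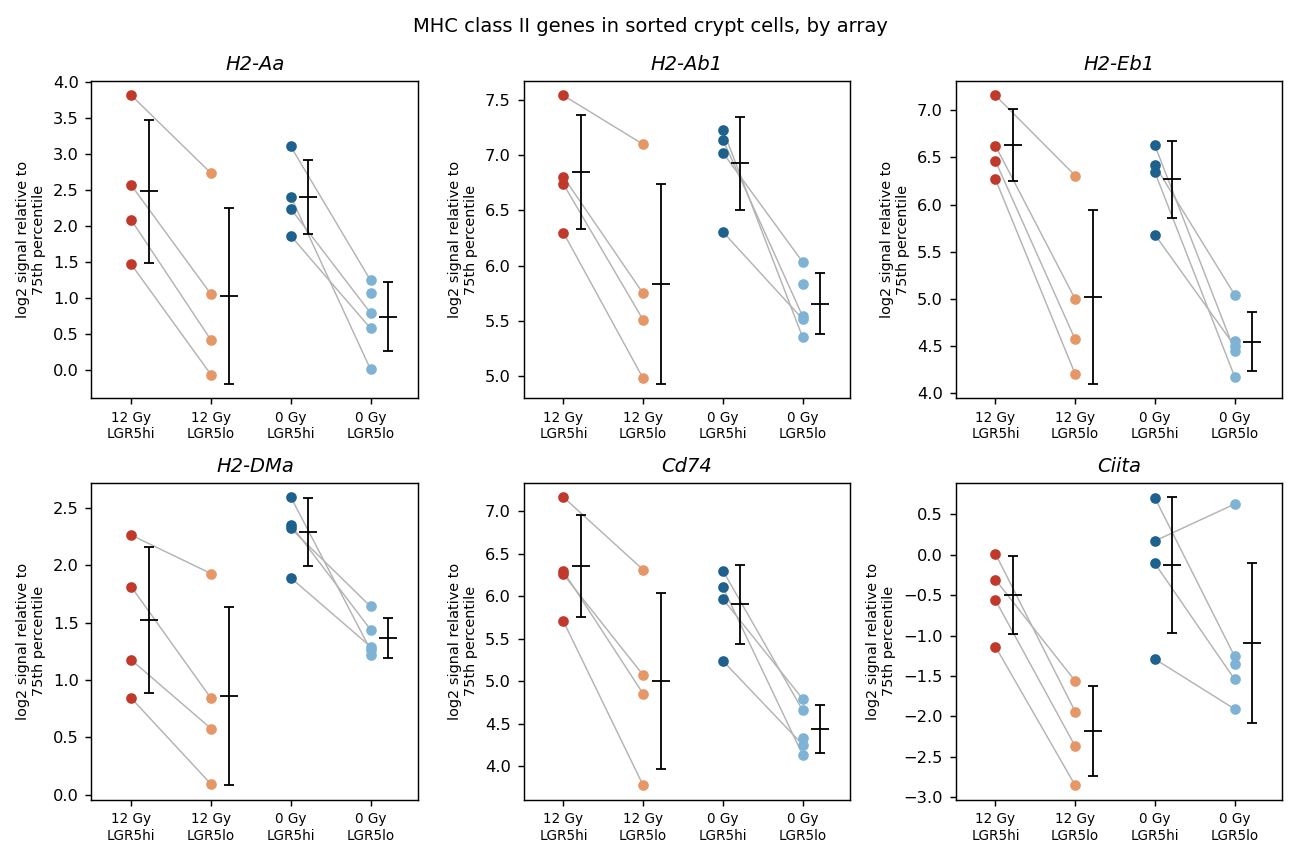
Log2 signal relative to the array's 75th percentile for the 6 class II genes, 1 panel per gene, in irradiated (12 Gy) and non-irradiated (0 Gy) LGR5hi and LGR5lo cells. Points are arrays, grey lines join LGR5hi and LGR5lo arrays of the same arm and replicate number, and black marks are means ± SD (n = 4, 4, 4 and 5). All lines but 1, of Ciita without irradiation, fall toward LGR5lo.

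In the irradiated arm 1 of 6 members was called higher in LGR5hi cells, where 6.62% of all gene names were called and 2.34% were called higher. In the non-irradiated arm 3 of 6 were, where 9.67% were called and 4.55% were called higher. The median difference of the 6 members was 1.40 after irradiation and 1.37 without it, beside 0.05 and -0.11 over all gene names. Without irradiation 5 of 6 members did not overlap between the sorts, where 5.54% of gene names lay higher in LGR5hi cells without overlap. After irradiation 1 of 6 did not overlap, where 11.0% of gene names did so.

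LGR5hi and LGR5lo arrays of the same arm and number correlated in their deviations from the group means (r from 0.12 to 0.46). They share slide and sex, and the labels do not call them pairs. Taken as 8 pairs, H2-Aa, H2-Ab1, H2-Eb1, H2-DMa and Cd74 were higher in LGR5hi cells in 8 of 8 pairs, as were 9.66% of all gene names. Ciita was higher in 7 of 8, the exception being the non-irradiated pair numbered 2, at -0.46. The difference within pairs was 1.66 ± 0.49 for H2-Eb1, 1.60 ± 0.40 for H2-Aa, 1.40 ± 0.42 for Cd74, 1.29 ± 0.83 for Ciita, 1.16 ± 0.45 for H2-Ab1 and 0.77 ± 0.30 for H2-DMa (mean ± SD, n = 8 pairs). With each pair as a block, all 6 members were called after irradiation, with adjusted p from 0.00384 for H2-Aa to 0.0405 for H2-DMa (limma). In that fit 5 of 6 were called without irradiation, Ciita being the exception at an adjusted p of 0.159. The same fit called 2549 of 27799 gene names after irradiation, 1103 of them higher in LGR5hi cells. Without irradiation it called 2458, of which 1149 were higher. The block within arms was chosen after the data had been seen.

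The sort difference had the same direction on the first and on the second slide of arrays. Slide 3 held only non-irradiated LGR5lo replicate 5. Averaged over arms, H2-Eb1 differed by 1.87 ± 0.24 on the first slide and by 1.46 ± 0.36 on the second, and Cd74 by 1.63 ± 0.32 and 1.17 ± 0.40. H2-Aa differed by 1.76 ± 0.26 on the first slide and 1.43 ± 0.52 on the second, H2-Ab1 by 1.28 ± 0.22 and 1.04 ± 0.38, H2-DMa by 0.73 ± 0.18 and 0.81 ± 0.30, and Ciita by 1.13 ± 0.49 and 1.45 ± 0.45. With 8 arrays a slide, 3 members passed on the first (H2-Aa, H2-Ab1 and H2-Eb1) and 0 on the second, by limma. Of 27799 gene names, 745 were called on the first slide, 133 of them higher. On the second 949 were called, 329 of them higher.

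Single arrays decided some of these calls. In the non-irradiated arm the count fell to 1 of 6 without any one of non-irradiated LGR5hi replicates 1, 2 and 4 or non-irradiated LGR5lo replicates 3 and 5, and was 2 of 6 without the bright LGR5lo array (H2-Eb1 and Ciita). Without irradiated LGR5lo replicate 4 it was 5 of 6. In the irradiated arm the count was 0 of 6 without irradiated LGR5lo replicate 1, 2 of 6 without non-irradiated LGR5hi replicate 3 or the bright LGR5lo array, and 4 of 6 without irradiated LGR5lo replicate 4.

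Leukocytes carry class II, so the leukocyte gene Ptprc, which encodes CD45, was set beside the members. Ptprc measured -4.34, -4.74, -3.53 and -2.80 in irradiated LGR5hi cells, against -4.19, -4.29, -3.63 and -3.90 in irradiated LGR5lo cells. It measured -3.93, -4.61, -4.03 and -4.63 in non-irradiated LGR5hi cells, against -4.11, -1.84, -3.36, -3.41 and -2.77 in non-irradiated LGR5lo cells. Its difference between the sorts was 0.15 ± 0.44 after irradiation (limma, adjusted p = 0.94) and -1.20 ± 0.42 without it (adjusted p = 0.0878). Ptprc was thus not called in either arm. Without non-irradiated LGR5lo replicate 1 it was called lower in non-irradiated LGR5hi cells, at -1.46 ± 0.41 (limma, adjusted p = 0.0292).

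The leukocyte list, Ptprc included, had 6 of 7 genes tested and gave 0 calls after irradiation by limma, with 0 at an unadjusted p below 0.05. Without irradiation 4 of the 6 were lower in LGR5hi cells: Cd52, Coro1a, Tyrobp and Laptm5. Of all 27799 gene names, 1189 were called lower after irradiation and 1423 without it. Laptm5 was well above background on 0 of 3 non-irradiated LGR5hi arrays with flags, against 4 of 5 non-irradiated LGR5lo arrays, so its level in LGR5hi cells is only a bound: it was at least 3.84-fold lower there (limma, adjusted p = 0.0483). Such folds set the mean of the brighter group against each dim array's own value or the lowest signal well above background on it, whichever was higher, with the highest such signal of the group for the rebuilt array. Laptm5 was no longer called without any 1 of 13 arrays, among them the bright LGR5lo array and non-irradiated LGR5hi replicate 1 (adjusted p = 0.0721 and 0.132). Tyrobp was no longer called without any 1 of 6, the 4 non-irradiated LGR5hi arrays and non-irradiated LGR5lo replicates 4 and 5 (up to 0.0875). Cd52, a surface glycoprotein of lymphocytes, measured -4.79, -4.44, -4.40 and -7.12 in non-irradiated LGR5hi cells, against -2.49, 0.92, -4.18, -1.21 and -1.63 in non-irradiated LGR5lo cells, and was well above background on 2 of 3 and 5 of 5 of these arrays with flags. The summed linear level of the leukocyte genes, in multiples of the array's 75th percentile, was 0.534 to 0.726 in irradiated LGR5hi cells and 0.629 to 0.697 in irradiated LGR5lo cells. It was 0.490 to 0.682 in non-irradiated LGR5hi cells and 0.654 to 4.39 in non-irradiated LGR5lo cells, where the bright LGR5lo array held the highest Cd52, 0.92, and the highest Ptprc. In the same unit the 6 class II members summed to 213 to 492, 65.9 to 306, 176 to 344 and 87.6 to 131 in the same order of groups. The myeloid and dendritic cell genes listed below summed to 45.2 to 62.8, 57.4 to 94.2, 35.7 to 54.2 and 38.8 to 104 in that order. The T cell sum lay between 8.56 and 19.6 in all groups, and the B cell sum between 0.659 and 2.25. All of these are sums over different probes. The part of leukocyte RNA in the class II levels was not tested.

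Among B cell genes, 4 of 4 tested, 0 were called after irradiation by limma, with 0 at an unadjusted p below 0.05, and Cd79b and Ms4a1 were lower in LGR5hi cells without irradiation, Ms4a1 not without non-irradiated LGR5hi replicate 1 (adjusted p = 0.0759) or 2 (0.067) and Cd79b not without replicate 3 (0.0515). Ms4a1 was well above background on 0 of 3 non-irradiated LGR5hi arrays with flags, against 4 of 5 non-irradiated LGR5lo arrays, and was at least 3.32-fold lower in LGR5hi cells (limma, adjusted p = 0.0176). Among T cell genes, 4 of 5 tested, 0 were called in either arm by limma, with 0 at an unadjusted p below 0.05 after irradiation and 1 without it. Among myeloid and dendritic cell genes, 8 of 10 tested, 0 were called after irradiation by limma, with 0 at an unadjusted p below 0.05, and the integrin gene Itgax was lower in LGR5hi cells without it. Itgax too was well above background on 0 of 3 non-irradiated LGR5hi arrays with flags, against 4 of 5 non-irradiated LGR5lo arrays, and was at least 5.73-fold lower in LGR5hi cells (limma, adjusted p = 0.00467). Of the stromal and endothelial list, 3 of 5 genes tested, Vim, the mesenchymal filament vimentin, was lower in LGR5hi cells, at -4.70 ± 0.22 after irradiation and -4.10 ± 0.21 without it. The other tested genes, Pecam1 and Col3a1, were not called in either arm. Within pairs, Pecam1 differed by -0.13 after irradiation and -0.71 without it, and Col3a1 by 0.44 and -0.70 (means). The summed stromal level was 0.489 to 0.576 in irradiated LGR5hi cells, 5.38 to 8.43 in irradiated LGR5lo cells, 0.317 to 0.457 in non-irradiated LGR5hi cells and 2.75 to 3.51 in non-irradiated LGR5lo cells. In LGR5lo cells this sum is mostly Vim, whose mean log2 level was 2.70 after irradiation and 1.44 without it. No marker list of another cell type had a member called higher in LGR5hi cells in either arm. Over all 27799 gene names, 2.34% were called higher and 1189 names lower after irradiation. Without irradiation 4.55% were called higher and 1423 names lower. In bulk RNA, fewer cells of a type cannot be told apart from less RNA per cell.

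**Figure D2:**
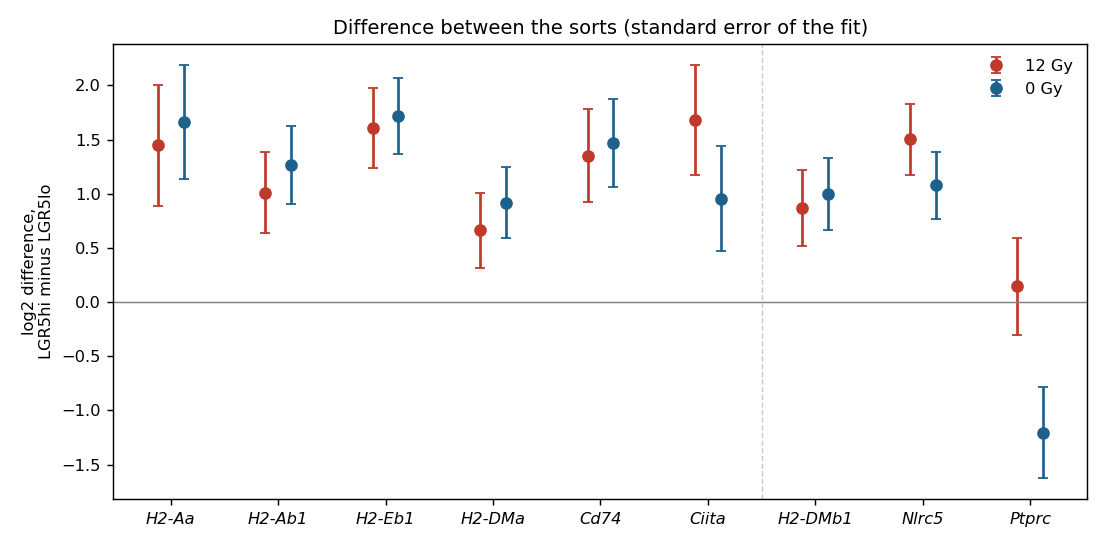
Log2 difference between LGR5hi and LGR5lo cells, after irradiation (12 Gy) and without it (0 Gy), for the 6 class II genes, left of the dashed line, and for H2-DMb1, Nlrc5 and Ptprc, with standard errors of the fit as bars. Class II genes lie between 0.66 and 1.72, and Ptprc lies at 0.15 and -1.20.

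No class II member passed the test for irradiation at 3 hours in either sort. 0 of 6 were called in LGR5hi cells, where 14.0% of all gene names were called, and 0 of 6 in LGR5lo cells, where 7.84% were (limma). At an unadjusted p below 0.05 there was 1 member in each sort. In LGR5hi cells this was H2-DMa, at -0.77 ± 0.35 (limma, adjusted p = 0.187). In LGR5lo cells it was Ciita, at -1.09 ± 0.48 (limma, adjusted p = 0.181), which became -0.67 ± 0.38 (adjusted p = 0.315) without the bright LGR5lo array. The median change of the 6 was -0.0011 in LGR5hi cells and 0.23 in LGR5lo cells, beside -0.02 and -0.15 over all gene names.

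The other changes in LGR5hi cells were 0.45 ± 0.43 for Cd74, 0.36 ± 0.37 for H2-Eb1, 0.08 ± 0.56 for H2-Aa, -0.08 ± 0.38 for H2-Ab1 and -0.37 ± 0.51 for Ciita. In LGR5lo cells they were 0.57 ± 0.40 for Cd74, 0.47 ± 0.35 for H2-Eb1, 0.29 ± 0.53 for H2-Aa, 0.18 ± 0.36 for H2-Ab1 and -0.51 ± 0.33 for H2-DMa. The intervals are wide. For H2-Aa in LGR5hi cells the 95% interval ran from -1.10 to 1.26 log2. For H2-Ab1 in the same cells it ran from -0.88 to 0.72.

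Averaged over both sorts, a contrast added after the data had been seen, 0 of 6 were called, where 20.0% of all gene names were (limma). H2-DMa came nearest at -0.64 ± 0.24 (limma, adjusted p = 0.0734) and was the 1 member with an unadjusted p below 0.05. It was called without irradiated LGR5hi replicate 4 (-0.76, adjusted p = 0.0321) or without irradiated LGR5lo replicate 4 (-0.82, adjusted p = 0.00918). The slides gave different signs for H2-Aa, H2-Ab1, H2-Eb1 and Cd74, and a test of the difference between slides was not run. On the first slide the average change was -0.39 ± 0.26 for H2-Aa, -0.55 ± 0.22 for H2-Ab1, -0.12 ± 0.24 for H2-Eb1, -0.09 ± 0.32 for Cd74, -1.52 ± 0.49 for Ciita and -1.27 ± 0.18 for H2-DMa, the 1 member called there (adjusted p = 0.0275). On the second it was 0.84 ± 0.52 for H2-Aa, 0.69 ± 0.38 for H2-Ab1, 0.96 ± 0.36 for H2-Eb1, 1.09 ± 0.40 for Cd74, -0.01 ± 0.45 for Ciita and -0.05 ± 0.30 for H2-DMa, and none was called. Of 27799 gene names, 926 were called on the first slide and 2840 on the second.

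The marker lists of other cells had 6 leukocyte, 4 B cell, 4 T cell, 8 myeloid and dendritic and 3 stromal and endothelial genes tested. Of these, 1 gene was called with irradiation in LGR5hi cells, the B cell gene Cd79b at 1.42 ± 0.26. Over all gene names, 14.0% were called in LGR5hi cells and 7.84% in LGR5lo cells. In LGR5lo cells Cd79b and Vim were higher and Coro1a, Cd8a and Itgax lower after irradiation. Apart from that of Vim, each of these LGR5lo calls was lost without at least 1 array. That of Cd79b was lost without any 1 of 10 (limma, adjusted p up to 0.143). Itgax was well above background on 1 of 4 irradiated LGR5lo arrays, against 4 of 5 non-irradiated ones. Their part in the class II values was not tested.

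The irradiation effect in LGR5hi cells minus that in LGR5lo cells was not called for any of the 6 members, nor had any an unadjusted p below 0.05, where 0.0360% of all gene names were called (limma). It ranged from -0.26 ± 0.48 for H2-DMa to 0.73 ± 0.70 for Ciita. Female minus male samples also gave 0 of 6, where 0.112% of gene names were called (limma). Ciita was the 1 member with an unadjusted p below 0.05, at -0.69 ± 0.31 (limma, adjusted p = 0.563).

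**Figure D3:**
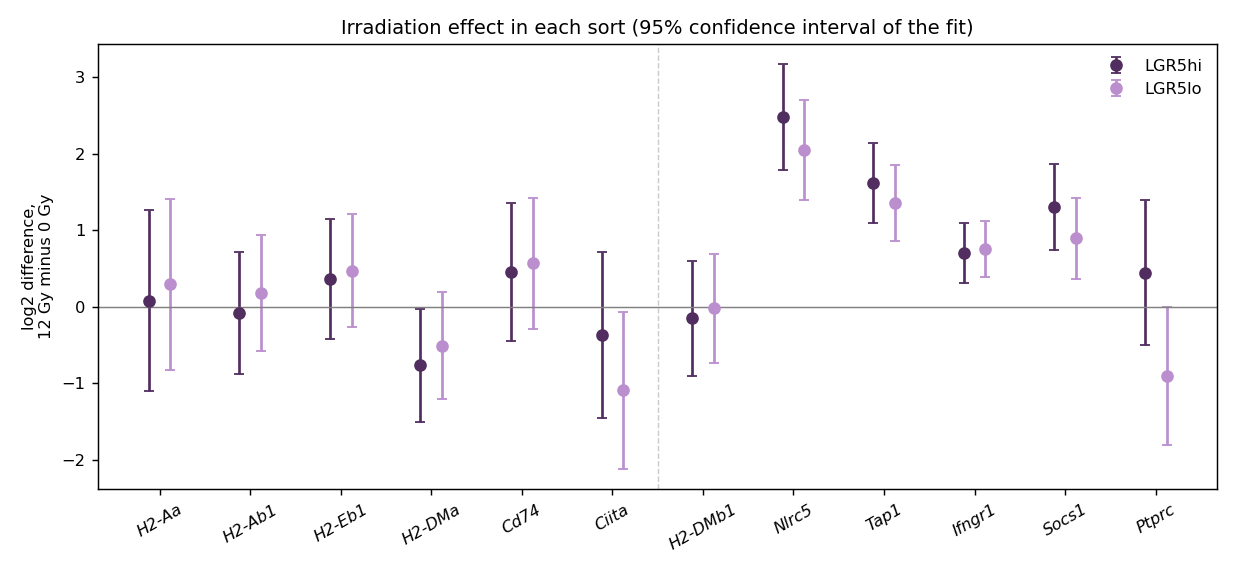
Log2 difference between irradiated (12 Gy) and non-irradiated (0 Gy) cells of each sort, with the 95% confidence interval of the fit, for the 6 class II genes, left of the dashed line, and for 6 related genes. The class II genes lie between -1.09 and 0.57, and Nlrc5 lies at 2.48 and 2.05.

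The 6 members differed among themselves in how they varied from array to array. After group means were removed, the Pearson correlation over the 17 arrays was 0.88 to 0.97 in the 10 pairs of H2-Aa, H2-Ab1, H2-Eb1, H2-DMa and Cd74. Pairs with Ciita were lower, from 0.33 with H2-Aa to 0.55 with H2-DMa. These are descriptions over arrays that share their scaling. The mean of H2-Aa, H2-Ab1, H2-Eb1 and Cd74 was highest in replicate 4 of both irradiated sorts, at 6.42 in LGR5hi cells and 5.61 in LGR5lo cells. It was lowest in replicate 2 of both, at 4.94 in LGR5hi cells and 3.23 in LGR5lo cells. Replicates 2 and 4 of the irradiated arm were both female. Irradiated LGR5hi replicate 4 also held the highest Ptprc of its group, at -2.80, while irradiated LGR5lo replicate 4, at -3.90, lay within its group. The part of leukocyte RNA in that array's class II level was not tested. Without irradiation the mean ran from 4.77 to 5.82 in LGR5hi cells and from 3.47 to 4.17 in LGR5lo cells.

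Over the 17 arrays this mean had a Pearson correlation of -0.27 with Ptprc and 0.65 with Lgr5, and 0.18 and 0.14 once group means were removed. Without irradiated LGR5hi replicate 4 and irradiated LGR5lo replicate 2, the arrays farthest from the median of the mean, the correlation with Ptprc was -0.64. With group means removed, the B cell gene Cd79b correlated with the members at 0.62 (H2-Ab1) to 0.75 (Cd74). For the myeloid gene Lyz2 the range was -0.62 (Ciita) to 0.11 (H2-Aa). The part of leukocyte RNA in these correlations was not tested. The arrays fall into sorts, and the values are given as a description. The array with the highest Ptprc, non-irradiated LGR5lo replicate 2 at -1.84, had the lowest class II mean of its group, 3.47. This is the bright LGR5lo array, with 95.6% of non-control spots well above background. The part of that brightness in either value was not tested.

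**Figure D4:**
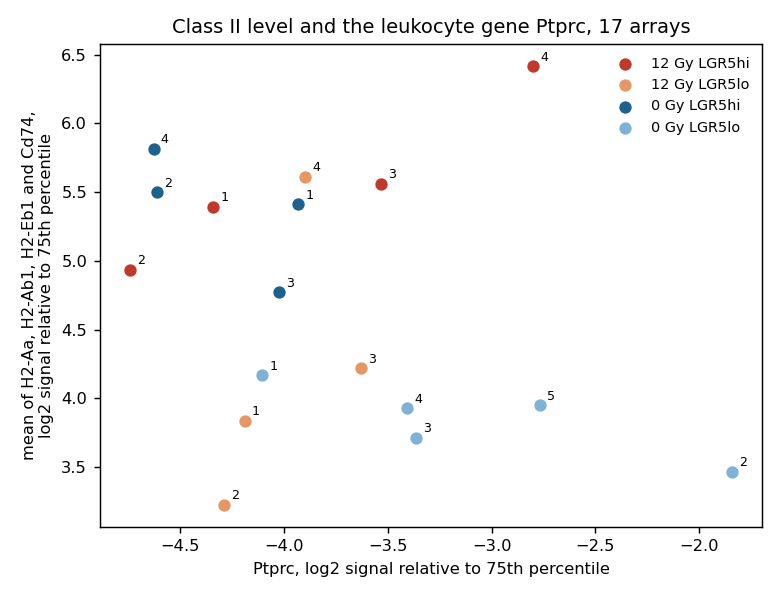
Mean log2 signal of H2-Aa, H2-Ab1, H2-Eb1 and Cd74 (vertical) against that of Ptprc (horizontal), both relative to the array's 75th percentile. Each point is 1 of the 17 arrays, coloured by group and numbered by replicate. The LGR5hi array with the highest Ptprc, replicate 4 after irradiation, lies highest at 6.42. The LGR5lo array with the highest Ptprc, replicate 2 without irradiation, lies at 3.47 and is the bright LGR5lo array.

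The 8 gene names whose pattern was most like this mean were ranked by Pearson correlation over 17 arrays among 16472 candidates. H2-DMb1, the beta chain of H2-DM and no member of the set, came first at 0.96. It was followed by Wdfy1 (0.95), Pclo (0.93), Olfr75-ps1 (0.93), Wdr66 (0.92), Prpmp5 (0.91), Adamts17 (0.91) and C8g (0.90). All 8 were higher in LGR5hi cells on the average of both arms, which the likeness itself favours.

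H2-DMb1 measured 2.83, 2.36, 2.92 and 3.65 in irradiated LGR5hi cells, against 1.81, 1.32, 2.002 and 3.14 in irradiated LGR5lo cells. It measured 3.21, 3.28, 2.52 and 3.35 in non-irradiated LGR5hi cells, against 2.49, 1.60, 1.91, 2.23 and 2.24 in non-irradiated LGR5lo cells. Like H2-DMa, its partner chain, it missed the threshold in each arm and passed on the average of both, at 0.93 ± 0.24 (limma, adjusted p = 0.0151). With pairs as a block it was called in both arms, with adjusted p of 0.0283 after irradiation and 0.0148 without it.

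Of the 11 other chains and loading genes tested, H2-DMb1 included, 0 were called higher and 1 lower in LGR5hi cells after irradiation. Without irradiation 2 were called higher and 0 lower. Over all gene names, 6.62% were called between the sorts after irradiation and 9.67% without it. Ctss and Ctsl, cathepsins S and L, which cut the invariant chain, were higher by 0.58 ± 0.16 and 0.59 ± 0.15 in non-irradiated LGR5hi cells. Ifi30, a lysosomal thiol reductase that unfolds antigens, was lower in irradiated LGR5hi cells, at -0.61 ± 0.14. Each of these 3 calls was lost without at least 1 array, with adjusted p of up to 0.0873 for Ctss, 0.0738 for Ctsl and 0.0549 for Ifi30. The list's median difference was -0.19 after irradiation and 0.32 without it. H2-Eb2, a beta chain gene next to H2-Eb1, was dim, above background on 11 of 16 arrays, and was called higher only on the average of both arms, at 0.83 ± 0.24, a call lost without non-irradiated LGR5hi replicate 4 (adjusted p = 0.0554). Of the chains of H2-DO, which inhibits H2-DM, H2-Oa was above background on 2 of 16 arrays and was not tested, and H2-Ob was not called between the sorts. H2-DMb2 and H2-Ea-ps, the alpha chain gene that would partner H2-Eb1, were each above background on 1 of 16 arrays.

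Genes that act with CIITA or control it, listed with the related gene Nlrc5, were called in both directions. Of 12 tested, 1 was called higher, Nlrc5, and 1 lower in LGR5hi cells after irradiation. Without it 2 were called higher, Nlrc5 among them, and 0 lower. These counts stand beside 6.62% of all gene names called after irradiation and 9.67% without it. Rfxap, a subunit of the RFX complex, was higher in non-irradiated LGR5hi cells by 0.59 ± 0.16 (limma, adjusted p = 0.0259). Rfxank, another RFX subunit, was lower in irradiated LGR5hi cells, at -0.80 ± 0.16 (adjusted p = 0.00547). Nlrc5, a relative of CIITA known as the transactivator of MHC class I genes, was higher in LGR5hi cells by 1.504 ± 0.33 after irradiation and by 1.08 ± 0.31 without it. Without irradiation the calls of Nlrc5 and Rfxap were lost without single arrays, non-irradiated LGR5hi replicate 1, 2 or 4 and non-irradiated LGR5lo replicate 5 among them, with adjusted p of up to 0.132 for Nlrc5 and 0.0924 for Rfxap.

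Of these 12 genes, Nlrc5 included, 3 changed with irradiation in each sort. Of all gene names 14.0% were called in LGR5hi cells and 7.84% in LGR5lo cells. Nlrc5 measured 1.47, 1.40, 1.77 and 1.67 in irradiated LGR5hi cells, against -0.995, -0.31, -1.97 and -0.33 in non-irradiated LGR5hi cells. In LGR5lo cells it measured -0.06, -0.21, 0.14 and 0.42 after irradiation, against -2.09, -1.59, -2.73, -1.66 and -1.81 without it. No irradiated array overlapped its non-irradiated counterparts, and Nlrc5 rose 5.57-fold in LGR5hi cells and 4.14-fold in LGR5lo cells (limma, adjusted p = 7.58e-05 and 0.000578). Nfyb, a subunit of NF-Y, rose by 1.14 ± 0.30 in LGR5hi cells and 1.14 ± 0.28 in LGR5lo cells. Rfxank fell in both, at -1.26 ± 0.16 and -0.65 ± 0.15. In each sort 2 of the 12 genes thus rose, Nlrc5 being 1 of them, and 1 fell. Leaving out single arrays ended the call of Nfyb in both sorts (adjusted p up to 0.0623 in LGR5hi cells and 0.0829 in LGR5lo cells) and that of Rfxank in LGR5lo cells (up to 0.0513).

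Among MHC class I presentation genes 1 of 16 was called with irradiation in each sort, beside the same 14.0% and 7.84% of all gene names. That gene was Tap1, a subunit of the peptide transporter of the class I pathway, which rose by 1.62 ± 0.25 in LGR5hi cells and 1.36 ± 0.23 in LGR5lo cells. Between the sorts 0 of 16 were called after irradiation (limma), with 3 at an unadjusted p below 0.05. Without irradiation the chaperone genes Pdia3 and Calr were lower in LGR5hi cells, at -0.71 ± 0.17 and -0.76 ± 0.22. Both calls were lost without non-irradiated LGR5hi replicate 1 (limma, adjusted p = 0.0595 and 0.143), and that of Calr without any 1 of 12 arrays. Over all gene names, 6.62% were called between the sorts after irradiation and 9.67% without it. Psmb8, a subunit of the immunoproteasome, followed the class II members within groups, with correlations of 0.81 to 0.93 with the chains, Cd74 and H2-DMa after group means were removed, and was not called between the sorts.

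Ifng itself was above background on 1 of 16 arrays. In its receptor and signalling list 0 of 9 genes were called between the sorts in either arm (limma), with 0 at an unadjusted p below 0.05 after irradiation and 1 without it, and 2 of 9 rose with irradiation in each sort, beside 14.0% of all gene names called in LGR5hi cells and 7.84% in LGR5lo cells. Between the sorts, 6.62% of all gene names were called after irradiation and 9.67% without it. Ifngr1, the ligand-binding receptor chain, rose by 0.70 ± 0.18 in LGR5hi cells and 0.75 ± 0.17 in LGR5lo cells. Socs1, a feedback inhibitor of the pathway, rose by 1.31 ± 0.26 in LGR5hi cells and by 0.90 ± 0.25 in LGR5lo cells. In LGR5lo cells Socs1 no longer passed without the bright LGR5lo array (limma, adjusted p = 0.0656) or 7 others (up to 0.147). Ifngr1 lost its call in LGR5hi cells without any 1 of 3 arrays, irradiated LGR5hi replicate 1 among them (up to 0.0587). In LGR5lo cells Ifngr1 lost it without irradiated LGR5lo replicate 1 (0.0514). Irf1, which drives the interferon-responsive promoter of Ciita, was not called with irradiation, at -0.46 ± 0.25 in LGR5hi cells and -0.26 ± 0.24 in LGR5lo cells.

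Of 20 interferon-induced genes, 4 rose and 0 fell with irradiation in LGR5hi cells, and 2 rose and 2 fell in LGR5lo cells. Of all gene names 14.0% were called in LGR5hi cells and 7.84% in LGR5lo cells. Mx1, an antiviral GTPase, and the chemokine gene Cxcl10 rose in both sorts, Mx1 by 4.66 ± 0.45 in LGR5hi cells and 2.65 ± 0.43 in LGR5lo cells, and Cxcl10 by 5.96 ± 0.87 in LGR5hi cells and 5.63 ± 0.83 in LGR5lo cells. Their non-irradiated levels were partly at background, so these sizes are imprecise: of the non-irradiated arrays with flags, Mx1 was well above background on 1 of 3 in LGR5hi cells and 5 of 5 in LGR5lo cells, and Cxcl10 on 2 of 3 and 3 of 5. Cxcl9 and Oas1a rose in LGR5hi cells, and Gbp6 and Ifit2 fell in LGR5lo cells. The Oas1a call was lost without any 1 of 13 arrays and that of Ifit2 without any 1 of 14 (limma, adjusted p up to 0.139 and 0.131). For Cxcl9 and Gbp6 any 1 of 2 and any 1 of 3 arrays did so. Ifit2 was well above background on 2 of 4 irradiated LGR5lo arrays and 5 of 5 non-irradiated ones. Between the sorts, Gbp6, a guanylate-binding protein, was the 1 gene of this list called higher in irradiated LGR5hi cells, by 1.24 ± 0.29 (limma, adjusted p up to 0.059 with single arrays left out). Mx1 and Irf7 were lower in non-irradiated LGR5hi cells. Over all gene names, 6.62% were called between the sorts after irradiation and 9.67% without it.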

How the data were processed

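RNA of 17 sorted samples was measured on single-colour Agilent arrays. Per the file headers, each deposited scanner file gives Cy3 intensity on a linear scale for every spot, background-subtracted and detrended by Agilent Feature Extraction 10.7.3.1, with no normalization between arrays. The deposited series table holds log2 values, which the values show to be scaled to each array's 75th percentile and then centred on a baseline per probe. One deposited scanner file, of LGR5hi replicate 1 without irradiation, is damaged, and its readable intensity column was recorded as an other unit. Its values were rebuilt as series value plus probe baseline, and lay within 0.02 log2 of the readable spots for 97.7% of 13813 probes.

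Values were log2 processed signal minus the 75th percentile of non-control probes. A probe was kept if well above background on at least 4 of 16 arrays (41480 of 55681), and the brightest kept probe stood for its gene name. Group means of all arrays were fitted with limma 3.58.1 (lmFit, eBayes; R 4.3.3), and p-values were adjusted by Benjamini-Hochberg over 27799 names at a threshold of 0.05. Gene symbols were updated through RefSeq for 2837 probes. The fit was tested on simulated data. The number of arrays limits the precision. The median standard error was 0.26 for the sort difference after irradiation and 0.25 without it.

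LGR5hi and LGR5lo arrays of one arm and number were taken as pairs, which the labels do not state, since all 8 correlated above 0.1 in their deviations from the group means (r from 0.12 to 0.46). Irradiated and non-irradiated arrays of the same number were not taken as pairs (r from -0.10 to 0.22). These ranges overlap, so the correlation does not separate pairs from other arrays. Arrays of one arm and number also share slide and sex, which cannot be told apart from a shared mouse. Alternatives changed the scaling, background correction, filter, probe choice, value source, covariates, blocks, variance model, weights and arrays used. By the rule, named genes are all members, Ptprc, Lgr5, Cdkn1a and called genes of the lists (at most 6 per list and comparison). The 8 names most like the class II mean are named too. Irf1, Psmb8, Ifng, Lyz2, Pecam1, Col3a1 and the dim or uncalled class II genes, which the rule does not name, were added after their values were seen. Values of 1 other gene are not reported here. Members and lists were chosen with earlier results of these data known. Promoter sequences are from RefSeq, where windows were matched for 3 of the 6 members. Other steps used Python 3.11.15, numpy 2.4.6, pandas 2.3.3 and matplotlib 3.10.9.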

Additional observations from a re-analysis of the deposited data

Results flagged for a closer look

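Ciita in non-irradiated LGR5lo replicate 2 measured 0.63, far above the other 4 arrays of its group. The next highest was -1.26 and the lowest -1.91, so the gap took 0.743 of the group's range, above Dixon's 95% critical value of 0.71 for 5 samples. It was the 1 such value in 28 groups checked, where chance gives about 1 in 20. The same array had 95.6% of spots well above background and the highest Ptprc of all arrays, -1.84. The part of either in the Ciita value was not tested.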

How the results depend on the processing

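No member changed direction where it was called. With 3 of 6 members called without irradiation, the count was 1 under normexp background correction, 5 with the replicate block within arms or arm and number as a random block, 5 with only the groups compared, and 0 on either slide alone. It was 1 to 5 with each array left out. With 1 of 6 called after irradiation, the count was 2 with sex as a covariate, a trended and robust variance or only the groups compared, and 3 with array weights or with the replicate block across arms. It was 6 with the replicate block within arms, 5 with the random block, 0 on either slide and 0 to 4 with each array left out. On the average of both arms, 6 fell to 3 on the first slide and 0 on the second, and was 5 to 6 with each array left out. For irradiation averaged over both sorts, 0 became 1 with the replicate block, the trended variance or the first slide alone, and was 0 to 1 with each array left out. Irradiation within each sort, its difference between sorts and sex stayed at 0 throughout. The first and the second slide hold 8 arrays each, and for the other settings the cause was not tested. Apart from the members, Ms4a1 on the average of both arms turned to 0.10 under normexp. The random block used a correlation of 0.28, and averages over arms or sorts were not run on only the groups compared. Counts over all gene names moved more: sort after irradiation 116 to 5116 (1840 as reported), sort without it 119 to 4305 (2687), average over arms 745 to 6874 (4648), irradiation in LGR5hi 283 to 7212 (3879), in LGR5lo 48 to 3436 (2179), averaged 926 to 8402 (5572), difference 0 to 70 (10) and sex 2 to 139 (31). Probes near background, such as that of H2-Eb2, are the least precise. The probe of Ptprc was low in signal but well above background on all 16 arrays with flags.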

Other observations

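Among gene names outside the antigen presentation lists, Wdfy1, Wdr66 and Adamts17, which resembled the class II mean over arrays, were higher in LGR5hi cells on the average of both arms by 0.94, 0.96 and 0.97 log2. They were picked for likeness to a mean that itself differed between the sorts, so these differences are a description, with no test. Removal of group means left correlations with the class II mean of 0.91 for Wdfy1, 0.79 for Wdr66 and 0.78 for Adamts17, against 0.98 for H2-DMb1.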
